A study of Mus musculus with 4 samples.

Results

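Ebi3 (ENSMUSG00000003206) and Il27ra (ENSMUSG00000005465) were followed through sorted mouse bone marrow progenitors with and without STAT5. They are 2 of the 31053 genes in the count tables. Ebi3 was chosen because its level was among the lowest in the knockout library relative to the control library, so its difference between these libraries is a description and carries no test. Il27ra was included as a receptor chain for the cytokines that Ebi3 forms. Ebi3 encodes a secreted protein with the fold of a cytokine receptor. It pairs with a helical partner: with the Il27 product (p28) it forms IL-27, and with the Il12a product (p35) it forms IL-35. IL-27 signals through Il27ra and the shared chain gp130 (Il6st), and IL-35 through Il12rb2 and gp130, mainly by Janus kinases that activate STAT proteins, among them STAT3 and STAT4. STAT5A and STAT5B are related transcription factors that act downstream of other blood cell cytokines, among them thrombopoietin and interleukin-3.

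The knockout mice were labelled Vav1-Cre/+STAT5abfl/fl and the controls Vav1-Cre/+STAT5ab+/+. Both genotypes therefore carried the Cre transgene, whose Vav1 promoter is active in blood cells, and only the knockout carried floxed Stat5a and Stat5b. KLS cells (c-Kit+, lineage-, Sca-1+, the marrow fraction rich in stem cells and multipotent progenitors) were sorted from mice 8 to 12 weeks old. The protocol names 4 mice and does not say whether this is per genotype. A second sort took CD45-negative, Sca-1+, CD140a+ stromal cells (labelled MSC) from mice 6 to 8 weeks old. Each of the 4 combinations was 1 droplet library (10x Genomics 3′ chemistry, version 3), so no difference between genotypes has a replicate check. All intervals below are 95% intervals for counting error only, exact Poisson for levels, exact binomial for shares and exact conditional binomial for ratios. A count of 0 is given instead with a floor, the level that 3 UMIs in that library would have (about the 1-sided 95% limit). Levels are unique molecular identifiers (UMIs) per 1000000 UMIs of the library or class of cells (CPM).

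After filtering, the control KLS library held 3085 cells and 51139373 UMIs (median 15136 per cell), and the knockout KLS library 6726 cells and 76389354 UMIs (median 10085). The libraries shared cell barcodes, 290 of them between both KLS libraries, and a barcode with more UMIs in another library was left out. The submitters' design text mentions 10008 sorted KLS cells in all and 605 CD45-negative cells. The files hold 11258 KLS barcodes, and 9811 remained. The KLS markers Kit (210 CPM in control, 178 in knockout), Cd34 (520 and 450) and Flt3 (169 and 140) were present in both libraries. Ly6a, which encodes the sort marker Sca-1, was at 65.2 CPM in control and 48.8 in knockout, a log2 ratio of -0.42 (-0.49 to -0.35). Stat5a was at 68.5 CPM in control and 6.74 in knockout, and Stat5b at 60.8 and 4.49, in the direction of the genotype labels. In the stromal libraries, sorted as CD45-negative, Stat5a was at 39.9 CPM in control and 55.0 in knockout, from 70 and 66 UMIs. The knockout to control log2 ratio was 0.46 (-0.04 to 0.97). Stat5b was at 50.2 and 46.7 CPM there (-0.10, -0.61 to 0.40), and both intervals include 0. The stromal libraries also held blood cell transcripts, with 5 neutrophil genes summing to 1235 CPM in control and 430 in knockout. The 4 myeloid genes Mpo, Elane, Prtn3 and Ctsg went the other way, summing to 11.4 CPM in control and 1122 in knockout.

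Ebi3 lies on mouse chromosome 17 at 55952640 to 55957022, plus strand, in the GENCODE M21 annotation of GRCm38. Its promoter is shown because STAT factors bind paired TTC and GAA letters, and because Ebi3 is known as a gene induced through NF-kappaB in myeloid cells. The 250 bases before the RefSeq transcription start (GRCm38.p6, chr17:55952373-55952622, plus strand) read, with a TTCNNGAA match and a kappaB match in capitals:

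Ebi3 promoter: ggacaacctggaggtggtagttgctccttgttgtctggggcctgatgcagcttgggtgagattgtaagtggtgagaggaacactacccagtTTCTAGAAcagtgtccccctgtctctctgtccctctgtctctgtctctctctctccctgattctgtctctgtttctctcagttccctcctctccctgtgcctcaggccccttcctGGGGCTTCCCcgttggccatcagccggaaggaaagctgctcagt

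The letters TTCNNNGAA, with the spacing that STAT5 dimers usually bind, were not in this window. They were in 7.02% of 32851 RefSeq promoter windows of the same length, searched on both strands. The shorter spacing TTCNNGAA matched once, as TTCTAGAA, with its first base 159 bases before the start, and was in 7.17% of windows. A spacing 1 base wider than TTCNNNGAA was not found either (5.85% of windows). The kappaB motif matched once, as GGGGCTTCCC, 44 bases before the start, and was in 7.25% of windows. A match describes letters in this window and is not a measured binding site.

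In the control KLS library Ebi3 had 1711 UMIs, a level of 33.5 CPM (31.9 to 35.1). In the knockout it had 681 UMIs, a level of 8.91 CPM (8.26 to 9.61). The knockout level was 26.6% of the control level, a log2 ratio of -1.91 (-2.04 to -1.78). The fall was chosen on these values. On the scale that ranks all genes, log2 of CPM plus a pseudocount of 10 CPM, Ebi3 was at -1.20 and was the 6th of 11482 genes from the largest fall. Wfdc17 at -1.21 stood just above it and Gm20234 at -1.19 just below, and the 10th and 11th genes were at -0.98 and -0.96. At a 2-fold threshold on this scale, 0.0784% of all genes were lower in the knockout and 0.0348% higher.

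Ebi3 was spread thinly over many cells. In the control, 1182 cells (38.3%) held at least 1 Ebi3 UMI: 801 held 1, 271 held 2, and 110 held 3 or more, with a maximum of 7. In the knockout, 609 cells (9.05%) held one: 548 held 1, 52 held 2 and 9 held 3 or more, with a maximum of 4. Control cells were deeper, so each cell was also thinned to 4000 UMIs, which left out 24 control and 289 knockout cells. After thinning, 13.7% of control cells (12.5 to 15.0) and 3.73% of knockout cells (3.28 to 4.22) held an Ebi3 UMI. The difference was -9.99 percentage points (Newcombe interval -11.3 to -8.72). Among cells with Ebi3, the thinned mean was 1.11 UMIs per cell in control and 1.06 in knockout, close to the minimum of 1.

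Il27ra, the ligand-binding chain of the IL-27 receptor, lay close to the same level in both libraries when all cells were summed. It had 813 UMIs in control (15.9 CPM, 14.8 to 17.03) and 1155 in knockout (15.1 CPM, 14.3 to 16.02). The log2 ratio was -0.07 (-0.20 to 0.06), an interval that includes 0. Within classes of depth the ratio was lower, as given with the depth classes: it was -0.26 (-0.45 to -0.06) in cells of 10000 to under 20000 UMIs. Before thinning, 21.8% of control and 14.9% of knockout cells held an Il27ra UMI. After thinning the shares were 7.12% and 6.17%, with intervals of 6.24 to 8.09 and 5.59 to 6.78 that overlap.

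**Figure D1:**
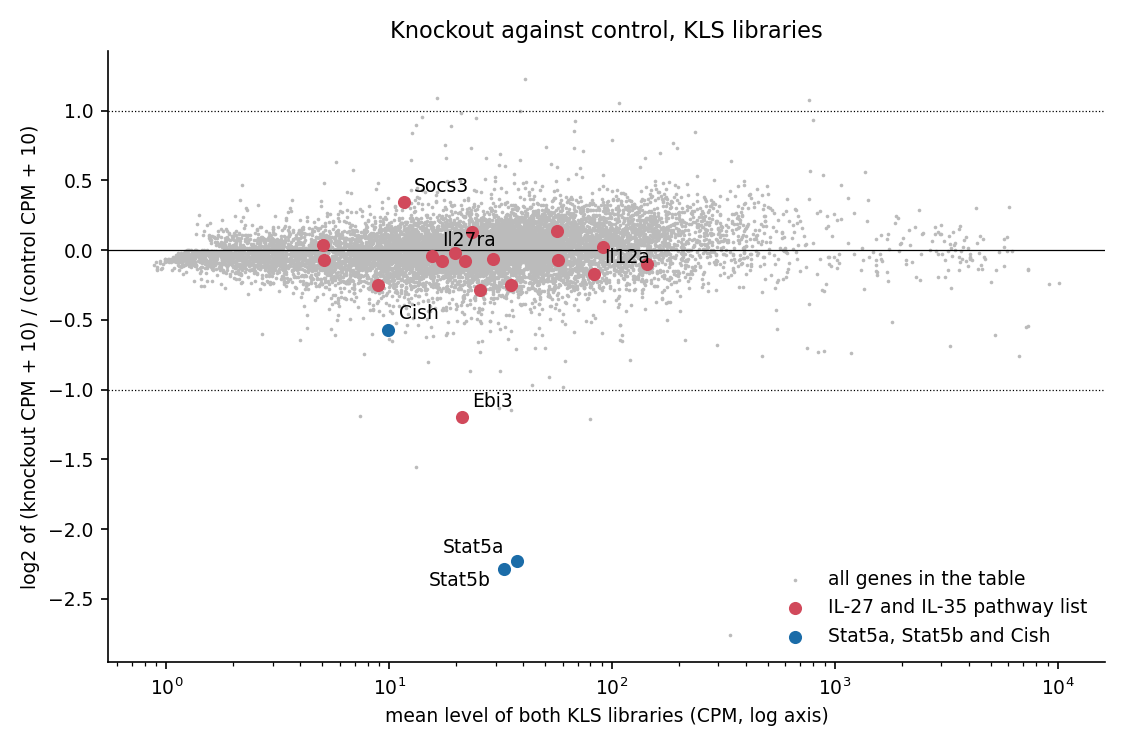
Each point is a gene of the KLS table. The x axis is its mean CPM in both libraries (log axis) and the y axis is the log2 ratio of knockout to control after adding 10 CPM; dotted lines mark 2-fold. Ebi3 at -1.20 lies outside the lines, as Stat5a and Stat5b do, while the other genes of the IL-27 and IL-35 list lie between -0.29 and 0.34.

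Cells were placed in lineage gates by marker UMIs: Hlf, Mecom and Procr together (stem), 2 or more Dntt (lymphoid), 2 or more Pf4 (megakaryocyte), Klf1 with Gata1 (erythroid), or 5 or more in all of Elane, Prtn3 and Ctsg (myeloid). Cells in more than 1 gate and in no gate were kept as classes of their own. In the control, Ebi3 was highest in the stem gate at 54.2 CPM (44.6 to 65.2, 194 cells). Cells of no gate followed at 44.8, then the lymphoid gate at 35.6, several gates at 32.0, the myeloid gate at 28.4 and the megakaryocyte gate at 21.6 CPM. The erythroid gate held 1 Ebi3 UMI in 37 cells, 0.94 CPM (0.024 to 5.23). Among neighbours in this order, only no gate over lymphoid and megakaryocyte over erythroid differed beyond counting error. The stem gate differed from the lymphoid gate, with a log2 ratio of 0.61 (0.27 to 0.93).

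The knockout kept a similar order at a lower level. Ebi3 was at 14.7 CPM in the stem gate (8.71 to 23.2, 18 UMIs in 147 cells), 11.01 in no gate, 9.58 in the lymphoid gate and 9.08 in the myeloid gate. It was at 7.85 in the megakaryocyte gate, 7.64 in several gates and 1.00 CPM in the erythroid gate (2 UMIs in 105 cells). In this library the only neighbours that differed beyond counting error were several gates over erythroid. The erythroid cells were the deepest of all gates (medians of 22567 UMIs in control and 16454 in knockout). Their shares with an Ebi3 UMI, 2.70% and 1.90%, rest on 1 UMI in control and 2 in knockout. Every other gate had a higher share in both libraries. Free RNA was not measured, and its part in these shares was not tested.

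**Figure D2:**
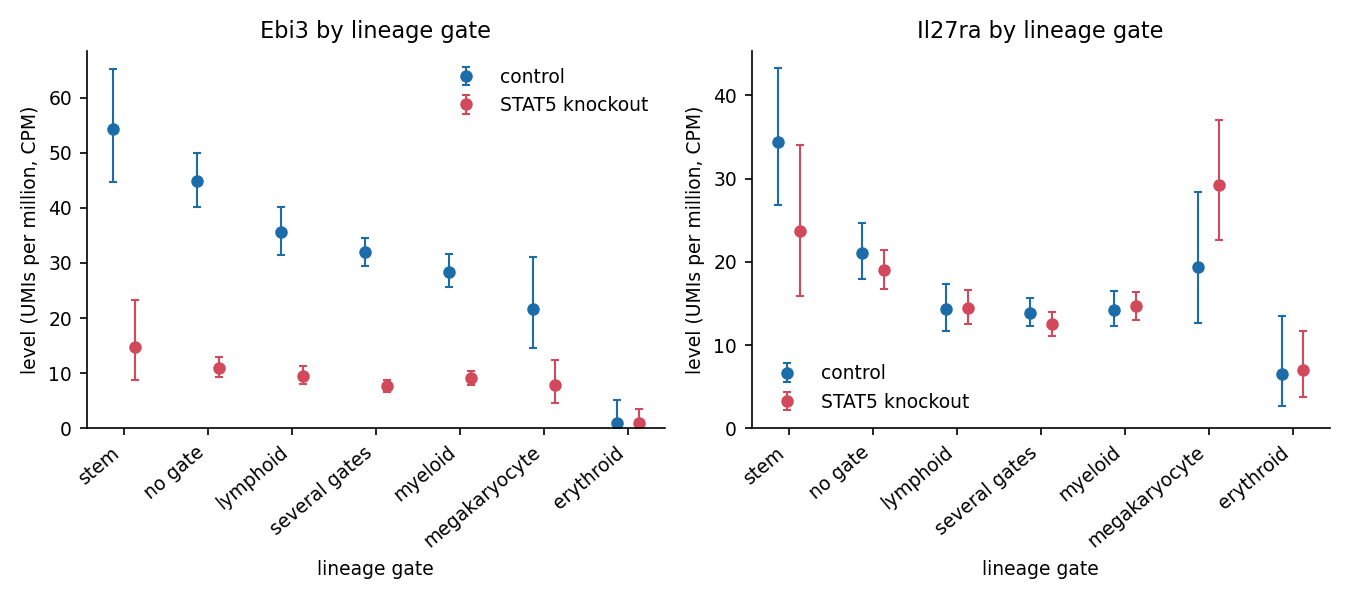
Level of Ebi3 (left) and Il27ra (right) in CPM by lineage gate in the control and knockout KLS libraries; points are 1 library each and bars are exact Poisson 95% intervals. Ebi3 is lower in the knockout in 6 of 7 classes and near 0 in the erythroid gate of both, whereas Il27ra intervals overlap between libraries in every class.

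Within gates, the knockout to control log2 ratio of Ebi3 was -1.88 in the stem gate (-2.69 to -1.16), -1.89 in the lymphoid gate (-2.21 to -1.59) and -1.65 in the myeloid gate (-1.91 to -1.39). It was -2.03 in cells of no gate, -2.07 in cells of several gates and -1.46 in the megakaryocyte gate (-2.40 to -0.57). In the erythroid gate the ratio rested on 3 UMIs and its interval ran from -4.18 to 5.97. Among the other 6 classes, the difference between 2 log2 ratios had a counting interval (normal, on the log scale, not adjusted over pairs) that excluded 0 in 2 of 15 pairs. The myeloid gate was above several gates by 0.42 (0.068 to 0.77) and above no gate by 0.38 (0.00038 to 0.76), so its fall was the smaller one in both. Gene by gene within each gate, Ebi3 ranked 6th from the largest fall of 9984 genes in the stem gate, 9th of 11106 in the lymphoid gate, 9th of 11471 in the myeloid gate and 24th of 9674 in the megakaryocyte gate.

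The share of cells in each gate also differed between the libraries. The stem gate took 6.29% of control and 2.19% of knockout cells, and cells of no gate 22.0% and 26.7%. Gates need marker UMIs, and the knockout cells were shallower. Gating on cells thinned to 4000 UMIs left the Ebi3 ratio inside its main interval in every gate with a value. In the megakaryocyte gate the ratio was then -1.04 (-2.14 to 0.05), from 17 UMIs in control and 15 in knockout, and this interval includes 0.

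Il27ra had its own distribution. In the control it was highest in the stem gate at 34.4 CPM (26.8 to 43.3), above no gate at 21.1 by a log2 ratio of 0.70 (0.28 to 1.12). The megakaryocyte gate was at 19.4, and the lymphoid, myeloid and several-gate classes lay between 13.9 and 14.4 CPM. In the knockout the megakaryocyte gate was highest at 29.2 CPM (22.6 to 37.1), followed by the stem gate at 23.7 and no gate at 19.0. The erythroid gate was lowest in both, at 6.57 and 6.99 CPM. The knockout to control log2 ratio of Il27ra had an interval including 0 in all 7 classes, from -0.54 (-1.21 to 0.10) in the stem gate to 0.59 (-0.08 to 1.30) in the megakaryocyte gate. The difference between those 2 gates, -1.13 (-2.03 to -0.23), excluded 0. With each gate 1 UMI stricter, the stem gate ratio moved to -2.33 (-5.45 to -0.33), from 26 UMIs in 55 control cells and 2 UMIs in 31 knockout cells. The ratio in several gates then moved from -0.15 to -0.55 (-0.86 to -0.24), so both intervals excluded 0 under the stricter gates. In the erythroid gate Il27ra had 7 UMIs in control and 14 in knockout, beside 1 and 2 for Ebi3.

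The Stat5 transcripts left in the knockout were spread unevenly over the gates, which allowed the Ebi3 ratio to be set beside them. Stat5a was left at 1.81% of its control level in the lymphoid gate (0.858 to 3.37), with 10 UMIs in 1405 cells. In the stem gate 34.8% was left (23.3 to 50.5), in the megakaryocyte gate 27.3%, in no gate 13.4%, in the myeloid gate 8.09% and in several gates 6.69%. Ebi3 was left at 26.9% in the lymphoid gate (21.6 to 33.3) and at 27.1% in the stem gate (15.5 to 44.8). It was left at 36.3% in the megakaryocyte gate, 31.9% in the myeloid gate, 24.5% in no gate and 23.9% in several gates. The stem gate, with the most Stat5a left, and the lymphoid gate, with the least, had overlapping Ebi3 intervals. The stem gate value rests on 18 knockout UMIs, and the megakaryocyte gate had the most Ebi3 left (19.0 to 67.6). Whether Ebi3 follows the Stat5a left was not tested. The 3′ tags do not show whether a Stat5a UMI came from an allele that Cre had cut.

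**Figure D3:**
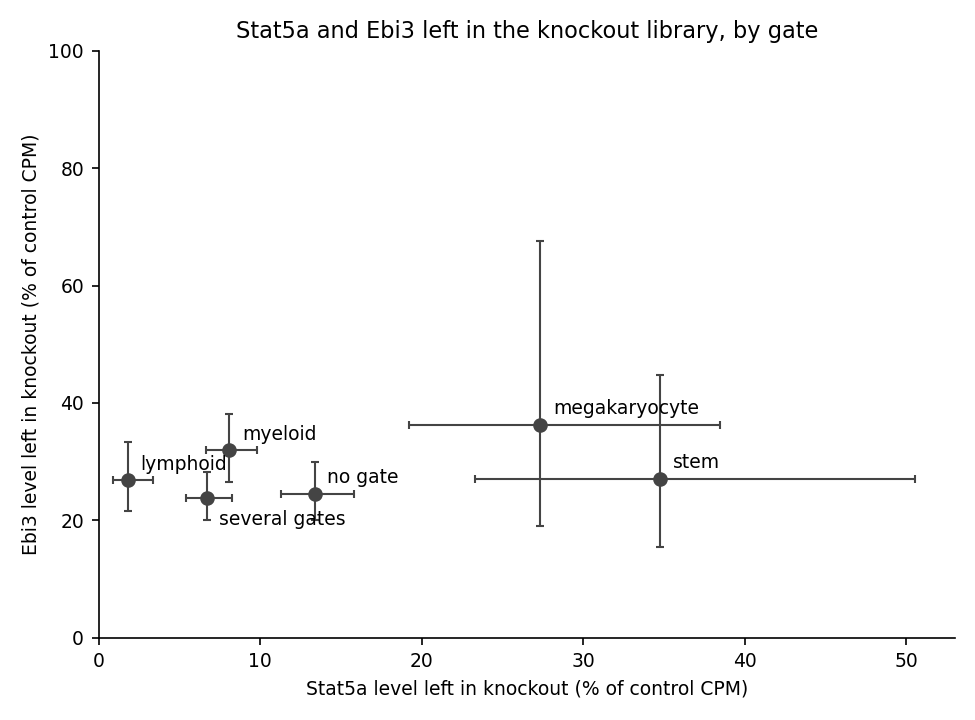
Ebi3 level (y axis) against Stat5a level (x axis) in the knockout library, each as a percentage of the control CPM of the same gate; bars are 95% counting intervals. The erythroid gate is not drawn because it held 3 Ebi3 UMIs in all. Stat5a spans 1.81% to 34.8%, while Ebi3 stays between 23.9% and 36.3%.

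Ebi3 was also read in single knockout cells with Stat5a or Stat5b UMIs. In the knockout 454 cells held at least 1 such UMI, and in them Ebi3 was at 8.06 CPM (5.90 to 10.7, 46 UMIs). The other 6272 cells were at 8.98 CPM (8.30 to 9.71). The log2 ratio of the former to the latter was -0.16 (-0.62 to 0.28). Knockout cells with 2 or more Stat5 UMIs were at 7.99 CPM. The Stat5a level in the 454 cells, which were picked for holding these UMIs, was 90.2 CPM against 79.8 in control cells picked the same way. Ebi3 in these control cells was 32.6 CPM, giving a knockout to control log2 ratio of -2.02 (-2.47 to -1.59), beside -2.10 (-2.31 to -1.90) among cells without a Stat5 UMI. Cish, a feedback inhibitor and well-known STAT5 target, was read in the same knockout cells. It was at 26.1 CPM in the 454 cells and 4.39 CPM in the rest, a log2 ratio of 2.57 (2.28 to 2.86). Control cells with and without a Stat5 UMI were at 12.9 and 19.2 CPM. Cish differed between gates as well, at 44.5 CPM in the control stem gate and 8.81 in the control lymphoid gate. Gate and depth differ between cells with and without a Stat5 UMI, and their part in the Cish values was not tested.

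Ebi3 was then compared within single gates and depth classes. In the knockout stem gate, Ebi3 was at 14.2 CPM in the 36 cells with a Stat5 UMI (4 Ebi3 UMIs, 3.86 to 36.3) and at 14.8 CPM in the 111 without (8.12 to 24.9). In the myeloid gate the values were 9.98 and 9.01 CPM, and in no gate 9.35 and 11.2 CPM, with overlapping intervals. In knockout cells of 10000 to under 20000 UMIs they were 8.27 and 8.41 CPM. A Stat5 UMI can also be free RNA from another cell, a part that was not tested beyond the lymphoid gate's Stat5a level of 0.74 CPM.

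In the control, Ebi3 was slightly lower in cells with a Stat5 UMI (32.6 CPM) than without (38.6 CPM), a log2 ratio of -0.24 (-0.43 to -0.05). The cells with a Stat5 UMI were deeper (medians of 16751 and 9623 UMIs), and Ebi3 CPM was lower in deeper cells. Inside the range of 10000 to under 20000 UMIs the 2 classes were at 36.1 and 34.1 CPM with overlapping intervals.

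Il27ra behaved differently from Ebi3 in the knockout cells with Stat5 UMIs. It was at 23.1 CPM in those 454 cells and 14.5 CPM in the rest, a log2 ratio of 0.68 (0.40 to 0.94). It was also higher in the stem gate (35.4 against 20.2 CPM) and no gate (28.1 against 17.9). The same held for several gates (21.7 against 11.9) and the myeloid gate (20.0 against 14.2). The stem gate pair rests on 29 Il27ra UMIs in all. Whether any of these single-gate differences exceeds counting error was not tested. In the megakaryocyte gate the values were 28.8 and 29.3 CPM, and in the lymphoid gate, with 2 Il27ra UMIs in 17 cells, 13.3 and 14.5 CPM. In the control the sign was opposite, with 15.1 CPM in cells with a Stat5 UMI and 20.8 CPM without (-0.46, -0.72 to -0.19). Gate and depth differ between these classes, and their part in the Il27ra values was not tested beyond the values given.

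Both genes were lower, in CPM, in cells with more cell cycle transcripts. Thinned cells were split into 3 classes of like size over both libraries by their UMIs of 30 S and G2/M genes, at 12 and 25 UMIs. In the control, Ebi3 was at 47.3 CPM in the low class (44.0 to 50.9), 27.5 in the middle and 27.4 in the high class. In the knockout it was at 12.8, 7.81 and 8.20 CPM. The high to low log2 ratio was -0.79 (-0.96 to -0.62) in control and -0.64 (-0.92 to -0.36) in knockout. The knockout to control ratio was -1.89, -1.82 and -1.74 in the 3 classes, with overlapping intervals. Il27ra had high to low ratios of -0.85 in control (21.3 to 11.8 CPM) and -0.48 in knockout (18.6 to 13.4 CPM). These classes are ranges of a score, with 51 control and 142 knockout cells exactly at the lower bound. Any free RNA would count toward the score, a part that was not measured.

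The same gradient appeared with depth, which moved with the cycling score: median depth was 9176 UMIs in the low class and 19969 in the high class of the control. Control cells of 5000 to under 10000 UMIs held Ebi3 at 51.1 CPM, cells of 10000 to under 20000 at 35.7 and cells of 20000 or more at 26.8 CPM. The knockout values were 11.8, 8.40 and 5.90 CPM. Below 5000 UMIs the control had 41 cells and 9 Ebi3 UMIs (68.2 CPM, 31.2 to 129), and the knockout 905 cells at 13.9 CPM. The knockout to control log2 ratio was -2.29, -2.11, -2.09 and -2.18 from the shallowest to the deepest class. Each is lower than the ratio over all cells, and the knockout held more of the shallow cells, in which Ebi3 CPM was higher. Within cells of no gate, the control level at 5000 to under 10000 UMIs was 52.0 CPM and at 20000 or more 41.5 CPM, the latter from 37 cells. Il27ra had knockout to control log2 ratios of -1.71 (-2.93 to -0.20), -0.20 (-0.48 to 0.09), -0.26 (-0.45 to -0.06) and -0.16 (-0.42 to 0.11) from the shallowest to the deepest class. All 4 are below the ratio over all cells, 2 of the intervals exclude 0, and the shallowest class rests on 6 Il27ra UMIs in control.

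**Figure D4:**
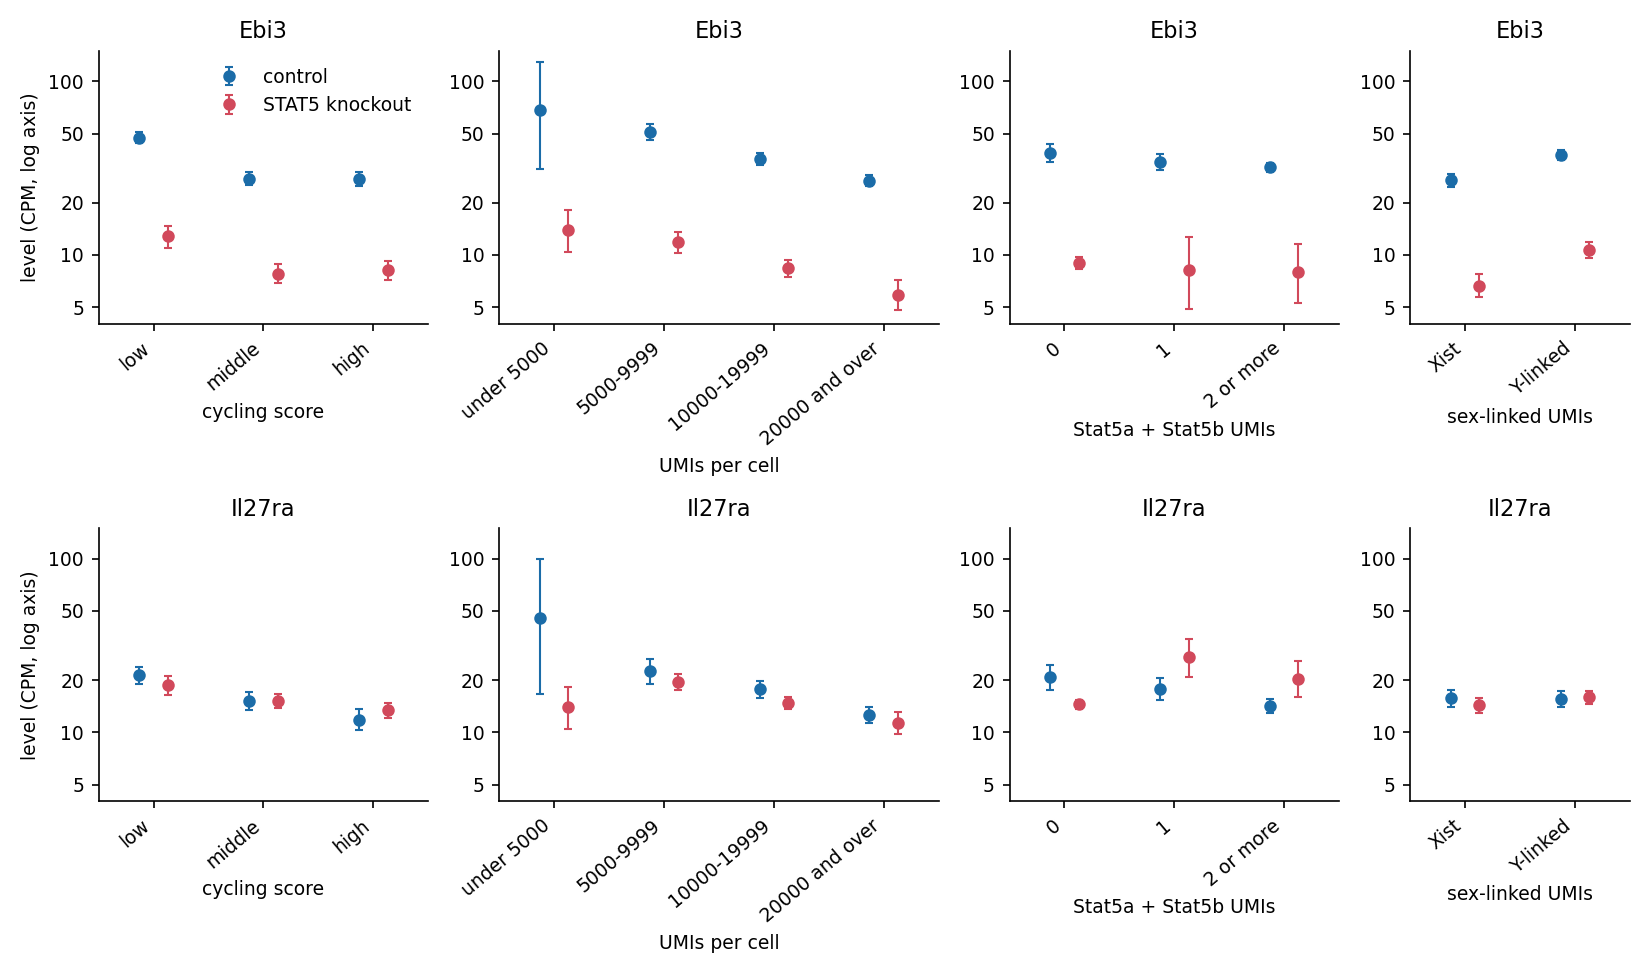
Level of Ebi3 (top) and Il27ra (bottom) in CPM (log axis) by cycling class, UMIs per cell, Stat5a plus Stat5b UMIs and sex-linked transcripts, in the control and knockout KLS libraries; bars are exact Poisson 95% intervals. Ebi3 is lower in the knockout in every class shown, and Il27ra crosses over between cells with 0 and with 1 or more Stat5 UMIs.

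Both libraries held cells with Xist and cells with Y-linked transcripts, so each pooled mice of both sexes. Ebi3 was higher in the Y-linked class of each. In the control it was at 37.6 CPM in cells with Y-linked UMIs only and 27.0 CPM in cells with Xist only (0.48, 0.32 to 0.64). In the knockout the levels were 10.7 and 6.67 CPM (0.68, 0.42 to 0.95). The knockout to control log2 ratio was -1.82 (upper bound -1.64) in Y-linked cells and -2.02 (-2.27 to -1.77) in Xist cells. These intervals overlap. In cells with both Xist and Y-linked UMIs, Ebi3 was at 37.2 CPM in control and 6.91 in knockout. The ratio there was -2.43 (-2.84 to -2.04), an interval wholly below that of Y-linked cells and overlapping that of Xist cells. Cells with neither were at -1.62 (-2.12 to -1.12). Why some cells held both kinds of UMI was not tested. Stat5a left in the knockout was 9.55 CPM in Y-linked cells and 2.66 CPM in Xist cells, beside 68.9 and 66.0 CPM in control. With an unknown number of mice of each sex, sex and animal cannot be told apart. Among Y-linked knockout cells, Ebi3 was at 10.3 CPM with a Stat5 UMI and 10.7 CPM without. Il27ra was at 15.6 and 15.7 CPM in Y-linked and Xist cells of the control, and at 15.9 and 14.3 CPM in the knockout.

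Of the helical partners of Ebi3, Il12a was the one measured at depth. Il12a, which also forms IL-12 with Il12b, was at 88.2 CPM in control and 77.2 in knockout, a log2 ratio of -0.19 (-0.25 to -0.14). Its distribution over gates differed from that of Ebi3: it was at 243 CPM in the control lymphoid gate and 190 in the knockout one, against 27.6 and 24.5 CPM in the stem gate. Il27 had 46 and 67 UMIs (0.90 and 0.88 CPM). Il23a had 9 and 11 UMIs, and Il12b had none in either KLS library, which allows up to 0.059 CPM in control and 0.039 in knockout.

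At single-cell level, Il12a was found at nearly the same share of control cells with and without Ebi3. After thinning, Il12a was in 26.2% of the 420 control cells with Ebi3 and in 25.9% of the 2641 without. In the knockout the shares were 27.5% of 240 cells and 23.4% of 6197 cells. Il27ra was in 8.10% of thinned control cells with Ebi3 and 6.97% without, and in 5.42% and 6.20% in the knockout. These shares come from 34 and 13 cells with both UMIs, and their intervals overlap.

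Of the receptor chains, Il6st (gp130) was at 20.0 CPM in control and 19.5 in knockout (-0.04, -0.15 to 0.08). In the control it was highest in the lymphoid gate at 36.7 CPM, with 17.9 CPM in the stem gate, an order that differs from that of Il27ra. Il12rb2 was at 5.48 and 4.75 CPM, Il12rb1 at 4.87 and 5.21, and Il6ra at 22.1 and 25.1 CPM. Il23r had no UMI in either KLS library. Il27ra and Il6st, the 2 chains of the IL-27 receptor, were found together in 168 of 674 control cells with Il27ra (24.9%), beside 23.8% of cells without. After thinning, Il6st was in 4.13% of control cells with Il27ra (9 cells, 1.90 to 7.69) and in 7.60% without (6.65 to 8.63). In the knockout the shares were 9.07% (36 cells, 6.43 to 12.3) and 7.02% (6.39 to 7.69). The intervals overlap in both libraries.

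The kinases and STATs that carry these signals were close to level between the libraries. Jak1 was at 149 and 138 CPM, Jak2 at 30.0 and 28.2, Tyk2 at 22.7 and 20.9, and Stat3 at 90.4 and 91.9 CPM. Stat4 was at 39.0 and 31.2 CPM (-0.32, -0.41 to -0.23). Genes known to respond to IL-27 or to gp130 signals went in both directions. Socs3, an inhibitor of gp130 signalling, was higher in the knockout (9.07 and 14.2 CPM; 0.64, 0.49 to 0.80), and Irf1 was at 53.6 and 59.8 CPM. Socs1, an inhibitor of Janus kinases, was lower (10.6 and 7.29 CPM; -0.54, -0.71 to -0.37), as was the interferon-response gene Gbp2 (29.2 and 22.1 CPM; -0.40, -0.50 to -0.30). Cd274 was at 18.0 and 16.5 CPM, and Tbx21 and Il10 had 15 UMIs or fewer in each library.

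Of the 24 genes in this pathway list, 18 passed the filter of the all-gene table (at least 100 UMIs over both libraries and 2% of cells in the library where the gene was higher). With the 10 CPM pseudocount, Ebi3 was the 1 gene past 2-fold, and it was chosen for that. Over all 11482 genes, 0.0784% were lower and 0.0348% higher in the knockout at this threshold. The median of the 18 was -0.07, the same without Ebi3, and that of all 11482 genes was -0.01. Over all cells Cish was at 13.8 CPM in control and 6.01 in knockout, whereas among cells with a Stat5 UMI it was higher in the knockout (1.02, 0.75 to 1.28).

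**Figure D5:**
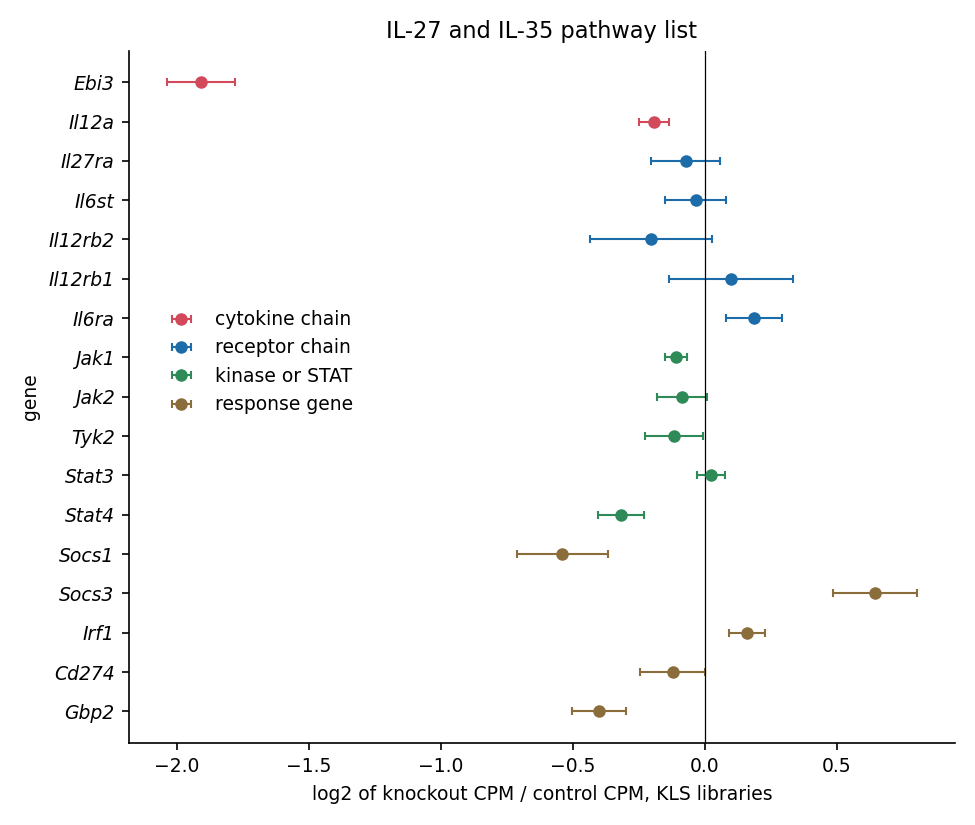
Log2 ratio of knockout to control CPM (x axis, no pseudocount) for 17 genes of the IL-27 and IL-35 list with enough UMIs, coloured by role; bars are 95% counting intervals. Ebi3 at -1.91 stands alone on the left, Socs1 and Gbp2 lie to the left of 0 and Socs3 to the right.

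Control cells with and without an Ebi3 UMI were compared for lineage genes. The erythroid markers Klf1, Gata1 and Epor together were at 12.2 CPM in cells with Ebi3 and 34.5 CPM in cells without, and in the knockout at 18.2 and 29.6 CPM. The myeloid granule genes differed less, apart from Elane in control. Mpo was at 591 and 515 CPM in control cells with and without Ebi3, Prtn3 at 437 and 385, Ctsg at 157 and 121, and Elane, a granule protease, at 71.0 and 21.5. In the knockout Elane was at 49.5 and 44.5 CPM, and the other 3 were 1.11 to 1.19 times as high in cells with Ebi3. The myeloid gate took 21.4% of control cells with Ebi3 and 22.3% of those without, and 27.3% and 23.4% in the knockout. Hlf, a stem cell regulator, was at 294 and 237 CPM in control and 183 and 162 CPM in knockout. Cells with Ebi3 were deeper in both libraries (medians of 17006 against 13710 UMIs in control), and their part in these values was not tested.

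Ebi3 is also made by antigen-presenting cells, so markers of other cell types were read beside it. The 11 dendritic cell and macrophage genes summed to 137 CPM in control and 211 in knockout, and none was at 0. The sum was carried by the MHC class II genes, with H2-Ab1 at 48.5 and 86.9 CPM, H2-Aa at 18.9 and 35.7 and H2-Eb1 at 10.6 and 24.8. Macrophage genes of the list went in both directions. Adgre1 (0.53 and 0.17 CPM, log2 ratio -1.63, -2.71 to -0.63) was lower in the knockout. So were C1qa (2.87 and 1.44 CPM, 50.1% of the control level, 38.8 to 64.6%) and C1qb (2.93 and 1.18 CPM, log2 ratio -1.32, -1.71 to -0.93). Csf1r was at 6.34 and 5.51 CPM, with an interval that includes 0 (-0.20, -0.41 to 0.01). Cd68 was at 10.1 and 11.1 CPM (0.15, -0.01 to 0.31), and Itgax at 1.49 and 1.68 CPM (0.17, -0.25 to 0.60). In cells with no UMI of this list the Ebi3 log2 ratio was -1.96. Plasma cell genes summed to 78.5 and 89.8 CPM, of which Jchain was 8.82 and 22.8 CPM. Of these Jchain UMIs, 95.6% came from 1 control cell and 65.8% from 1 knockout cell. B cell genes summed to 33.4 and 27.2 CPM, with Ms4a1 and Pax5 at 0 in knockout, neutrophil genes to 4.65 and 4.10, T cell genes to 2.91 and 1.09, with Foxp3 at 0 in control, and stromal genes to 0.33 and 0.43, with Pdgfra at 0 in both and Lepr and Col3a1 at 0 in control. In cells with no UMI of a given list, taking the 6 lists in turn, the Ebi3 log2 ratio was between -2.07 and -1.90. In cells with a Ptprc (CD45) UMI it was -1.89 (-2.04 to -1.75).

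The genes most like Ebi3 over gates were named by the Pearson correlation of log2(CPM + 10) across the 7 classes of both KLS libraries, 14 profiles, among 12071 genes with at least 100 UMIs. They were Emcn (r = 0.96), Rps3a1 (0.96), Tmem50a (0.96), Rnf146 (0.96) and Itm2b (0.95). Emcn, which encodes the sialomucin endomucin found on endothelial and stem cells, was at 21.7 CPM in control and 8.23 in knockout. Over the same profiles Cish had r = 0.74, Stat5b 0.66, Il27ra 0.59, Stat5a 0.54 and Il12a 0.43. Over the 7 control classes alone the 5 most alike were Cyp4v3, Itm2b, Rell1, Ythdc1 and Zfp319, with r between 0.996 and 0.999, and Stat5a had r = -0.33. These profiles share libraries and depth, and the erythroid class lies far from the rest, so r is a description.

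The genes around Ebi3 on chromosome 17 did not share the size of its difference. On the side of lower coordinates, Zfp119b, 3140 bp away, had a knockout to control log2 ratio of -0.62 (-0.88 to -0.37, from 5.08 to 3.30 CPM), Zfp959 -0.30 (-0.45 to -0.15) and Zfp119a -0.49 (-0.70 to -0.28). On the other side, Yju2, 2077 bp away, was at 0.21 (0.06 to 0.36), Shd had 11 and 13 UMIs, and Fsd1 had none in either KLS library. Gm16712, annotated on the opposite strand, overlaps Ebi3 by 2252 bp and had 24 and 22 UMIs. Whether the counting used strand is not given in the sources used here, so reads in the overlap cannot be told apart.

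In the stromal sort Ebi3 had no UMI in 577 control cells (a floor of 1.71 CPM at 3 UMIs) and none in 374 knockout cells (2.50 CPM). Il27ra had 2 UMIs in each stromal library. Il6st was present there at 230 CPM in control and 168 in knockout. The control KLS level of Ebi3, 33.5 CPM, was at least 19.5-fold higher than in the control stromal library, with that library set at its floor of 3 UMIs.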

How the data were processed

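Droplet single-cell RNA was counted in 4 libraries, 1 per genotype and sort. The authors deposited whole-number UMI counts per gene and barcode. Cell Ranger with GRCm38 (mm10) is named per the submitters' processing notes, and software version 3.1.0 per the file headers; cell calling, strand rule and annotation release are not given in the sources used here. From the deposited counts, barcodes were kept from 200 genes upward and up to 10% mitochondrial UMIs. Scrublet doublets were left out at a set rate of 0.8% per 1000 barcodes (112 and 451 in control and knockout KLS, 4 and 1 in control and knockout stromal libraries), because its automatic threshold marked 0 to 1. Barcodes larger in another library were left out. Libraries were 1199251 to 76389354 UMIs deep.

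Counts were summed to CPM. Thinning drew 4000 UMIs per cell without replacement with a fixed seed. No clustering was done: cells were classed by marker UMIs. With 1 library per group no p-value was computed, and intervals cover counting error only, since the libraries give no spread between animals. Ebi3, Il27ra, the gene lists, gates and alternatives were chosen with earlier results of these data known. Named genes were Ebi3, Il27ra, the pathway list, 3 protein-coding neighbours on either side, Stat5a, Stat5b, Cish, gate genes and the 5 genes most alike; Wfdc17, Gm20234, Jchain and Gm16712 were named after their values were seen. Of the 31053 gene identifiers, 30934 were in GENCODE M21, used for positions. The promoter table held Ebi3 once. The values of 1 gene of the pathway list are not reported here, though it is in the list's counts. The ratio and its interval were run on simulated counts for knockout against control KLS over 12074 genes. All directions were recovered at log2 changes of 1 and 2, read on the ratio with 10 CPM added. The interval held the true value for 91% and 95% of changed and 96.2% of 500 unchanged genes. These counts were drawn from the Poisson model that the interval assumes. They carried no spread between cells or animals, so coverage under such spread was not tested. Python 3.11.15, numpy 2.4.6, scipy 1.17.1, scanpy 1.11.5 and matplotlib 3.10.9 were used, and edgeR 4.0.16 in R 4.3.3 for TMM factors in an alternative.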

Additional observations from a re-analysis of the deposited data

Results flagged for a closer look

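Il27ra had opposite signs between sorts. Its knockout to control log2 ratio was -0.07 (-0.20 to 0.06) in KLS cells and 0.55 (-3.24 to 4.33) in stromal cells, the latter from 2 UMIs in each library. The difference was not tested, and both intervals include 0.

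Il27ra also had opposite signs between the sexes of KLS cells: -0.14 (-0.36 to 0.08) in cells with Xist and 0.0323 (-0.17 to 0.23) in cells with Y-linked UMIs. This difference was not tested either, and both intervals include 0.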

How the results depend on the processing

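Each result was recomputed with 1 choice changed at a time, except that 1 alternative changed the depth base and the cells together, and a value was taken as moved where it left the main counting interval. The Ebi3 knockout to control log2 ratio stayed between -2.07 and -1.81 over 17 alternatives, around a main value of -1.91. It was -2.07 in cells of 5000 to under 20000 UMIs and -2.07 in cells with no plasma cell UMI. By gate, all 27 Ebi3 values stayed within their main intervals, and 1 alternative gave no value for the erythroid gate. The Ebi3 cycling ratio was -0.97 with classes drawn within each library. The Ebi3 depth ratio, 20000 or more against 5000 to under 10000 UMIs in control, was -0.93 and became -0.32 within cells of no gate. The 5000 to under 10000 base was chosen after the values were seen. With cells under 5000 UMIs as the base the ratio was -1.35 for all cells, and, with both choices changed, reversed to 0.25 within no gate, where the base held 30 cells and 3 Ebi3 UMIs. The same 2 bases gave -1.85 and -2.37 for Il27ra, from a main value of -0.83. The Il27ra knockout to control ratio, -0.07, was -0.22 in cells of 5000 to under 20000 UMIs and -0.23 on thinned counts, and ranged from -0.23 to 0.03. The Il27ra ratio by Stat5 UMIs, 0.68, was 1.11 on thinned counts and lay between 0.50 and 1.11 over 6 alternatives. The Ebi3 share difference was -16.0 points at 8000 UMIs and -29.3 points without thinning. Of 55 single-gate alternatives for both genes, 3 moved, all for Il27ra: -2.33 in the stem gate and -0.55 in several gates with stricter gates, and 0.37 in the myeloid gate with thinned gating. The cause of these changes was not tested. Alternatives added after seeing the data were the Y-linked cells, 2 or more Stat5 UMIs, every shared barcode left out, cells without UMIs of other cell types, and the other depth bases. No paired analysis was possible because each group is 1 library with no test. Depth limits the stem, megakaryocyte and erythroid gates, with 18, 18 and 2 Ebi3 UMIs in the knockout.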
